A study of Mus musculus with 6 samples.

Results

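The mouse mitochondrial genome encodes 37 genes, 13 for messenger RNA, 2 for ribosomal RNA and 22 for transfer RNA, and all 37 were found among the 32067 features of the deposited table by the mt- prefix of their symbols. They were compared in hippocampal poly(A) RNA of wild type female C57BL/6J mice aged 17 weeks. Every mouse had both ovaries removed, which takes away the main source of circulating estrogen. Between 8 and 17 weeks of age, the food of the 3 OVX+RJ mice contained 1% royal jelly, which honeybee workers make to feed larvae and queens, and the 3 OVX mice were fed a control diet. Each library is labelled as a biological replicate. The sham-operated group of the protocol is not analysed here. Levels are counts scaled to the same library total over all rows (CPM), with no further scaling.

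Mitochondrial DNA is transcribed on both strands, called heavy and light, as long precursors by the polymerase Polrmt with the factors Tfam and Tfb2m. In these precursors most messenger and ribosomal RNAs are flanked by transfer RNAs, and excision of the transfer RNAs releases the RNAs between them. The messengers encode core subunits of respiratory complexes I, III, IV and V, whose other subunits come from nuclear genes, and complex II is nuclear-encoded throughout. The ribosomal and transfer RNAs serve the mitochondrial ribosome. Neurons depend on this system for the ATP that ion pumping and synaptic transmission consume.

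Library totals ran from 36084588.5 to 39368206 counts in OVX+RJ and from 34718596.5 to 58163785 counts in OVX. OVX+RJ 1 stood apart in the whole transcriptome: the first principal component of log2 CPM, 28.7% of the variance, set it against the remaining 5 libraries. Log2 fold changes of the members are also given without it where that changed them by over 1.5 times. The tissue label was checked on 7 hippocampal markers, all detected, whose summed level was 1041 to 1137 CPM in OVX+RJ and 1006 to 1170.3 CPM in OVX. In bulk tissue, fewer cells of a type and less RNA per cell cannot be told apart.

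No mitochondrially encoded gene was called different between OVX+RJ and OVX, and the summed levels of all 3 classes overlapped between the groups. Together the 37 genes held 6.87%, 6.59% and 6.48% of all counts in OVX+RJ 1, 2 and 3, against 6.53%, 6.46% and 6.91% in OVX 1, 2 and 3. All 37 genes passed the filter on low counts. With edgeR (quasi-likelihood test, Benjamini-Hochberg adjustment over the 18629 genes tested), 0 of the 37 were called at an adjusted p of 0.05, beside 0% of all genes tested. Their adjusted p values lay between 0.986 and 0.999. The unadjusted p was under 0.05 at 0 of 37 members, beside 4.05% of all genes tested. DESeq2 also called 0 of 37, beside 0.0644% of all genes. Of the 37 log2 fold changes, 18 were positive and 19 negative, with a median of -0.013, beside a median of -0.0015 over all genes tested.

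Messenger RNA made up most of the mitochondrial signal. Its 13 genes summed to 62710.5, 58472 and 58316 CPM in OVX+RJ 1, 2 and 3 against 58620.5, 57792 and 61371 CPM in OVX 1, 2 and 3. OVX+RJ 1 and OVX 3 were the highest libraries and the groups overlapped, at means of 59833 ± 2493 CPM in the OVX+RJ mice against 59261 ± 1874 CPM in the OVX mice (SD, n = 3 each). Both ribosomal RNAs together gave 5682, 7043 and 6144 CPM in OVX+RJ 1, 2 and 3 against 6311, 6455 and 7331 CPM in OVX 1, 2 and 3. OVX+RJ 1 was the lowest of the 6 libraries here and OVX 3 the highest, and the groups again overlapped. The mean log2 difference, OVX+RJ minus OVX, was -0.093 for ribosomal RNA with all 6 libraries and -0.023 without OVX+RJ 1. For messenger RNA the same difference was 0.014, and -0.021 without OVX+RJ 1. The 22 transfer RNA genes summed to 348, 368 and 352 CPM in OVX+RJ 1, 2 and 3 against 354, 361 and 390.1 CPM in OVX 1, 2 and 3, a log2 difference of -0.048, and -0.033 without OVX+RJ 1. With all 6 libraries, each of these differences was smaller than the pooled SD between libraries, which was 0.053 for messenger, 0.14 for ribosomal and 0.060 for transfer RNA on the log2 scale. Because the libraries were made from poly(A) RNA, levels of the classes relative to each other are levels after that selection.

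**Figure D1:**
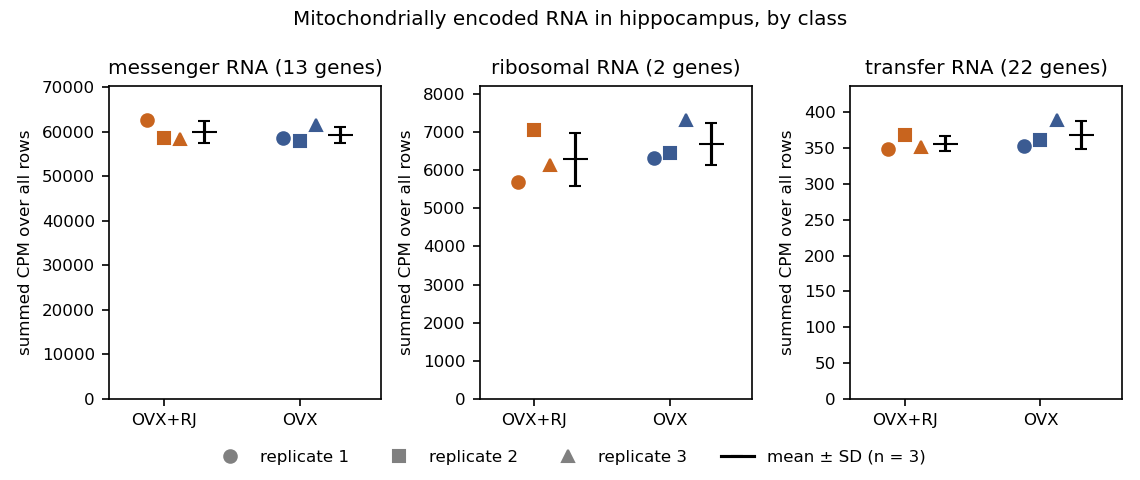
Summed CPM over all rows of the 13 messenger, 2 ribosomal and 22 transfer RNA genes in each library, with OVX+RJ left of OVX; black bars are mean ± SD (n = 3). The groups overlap in every panel, and OVX+RJ 1 (circle) has the highest messenger sum, 62710.5 CPM, and the lowest ribosomal sum, 5682 CPM.

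Ratios within the mitochondrial set do not depend on scaling between libraries. Ribosomal counts were 9.06%, 12.0% and 10.5% of messenger counts in OVX+RJ 1, 2 and 3, against 10.8%, 11.2% and 11.9% in OVX 1, 2 and 3. The lowest and the highest of these values both belonged to OVX+RJ. The log2 difference was -0.11 with all libraries and -0.0022 without OVX+RJ 1. The single light strand messenger, mt-Nd6, held 2.58%, 2.38% and 2.37% of the summed heavy strand messenger counts in OVX+RJ, against 2.47%, 2.27% and 2.45% in OVX, with overlapping groups. The log2 difference was 0.028, and -0.013 without OVX+RJ 1.

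The 7 messengers of complex I, which takes electrons from NADH, gave small differences in both directions. mt-Nd1 was 5617, 4646 and 4906 CPM in OVX+RJ 1, 2 and 3 against 4840.4, 4672 and 4979 CPM in OVX 1, 2 and 3, giving a log2 fold change of 0.079 (SE 0.10). mt-Nd5 was 6234, 5192 and 5168 CPM in OVX+RJ 1, 2 and 3 against 5394, 4963 and 5451 CPM in OVX 1, 2 and 3, giving a log2 fold change of 0.083 (SE 0.11). In both genes OVX+RJ 1 was above the other 5 libraries, and OVX+RJ 2 and 3 lay within the range of OVX or just below it. Without OVX+RJ 1 the log2 fold changes were -0.016 for mt-Nd1 and -0.024 for mt-Nd5.

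The same library was the highest at mt-Nd4, with 5185, 5082 and 5017 CPM in OVX+RJ 1, 2 and 3 against 4899, 4845 and 5105 CPM in OVX 1, 2 and 3, giving a log2 fold change of 0.053 (SE 0.069). mt-Nd4l, whose gene overlaps mt-Nd4 by a few bases on the same strand, was 747, 722 and 699 CPM in OVX+RJ 1, 2 and 3 against 710.1, 654 and 768 CPM in OVX 1, 2 and 3, giving a log2 fold change of 0.036 (SE 0.090). Its highest value was in OVX 3 and its lowest in OVX 2, so OVX spanned the whole of OVX+RJ. With OVX+RJ 1 left out, the log2 fold change was 0.029 for mt-Nd4 and -0.00023 for mt-Nd4l. mt-Nd6, from the light strand, overlaps the end of mt-Nd5 on the opposite strand. It was 1578, 1359 and 1350.5 CPM in OVX+RJ 1, 2 and 3 against 1411, 1285 and 1469 CPM in OVX 1, 2 and 3, giving a log2 fold change of 0.055 (SE 0.11), and without OVX+RJ 1 its log2 fold change was -0.035.

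mt-Nd2 was 3211, 3281 and 3203 CPM in OVX+RJ 1, 2 and 3 against 3253, 3333 and 3498 CPM in OVX 1, 2 and 3, giving a log2 fold change of -0.046 (SE 0.069). mt-Nd3, the lowest of the messengers, was 353, 366 and 340.3 CPM in OVX+RJ 1, 2 and 3 against 364, 342 and 429 CPM in OVX 1, 2 and 3, giving a log2 fold change of -0.090 (SE 0.11). OVX 3 held the highest value of both, and the groups overlapped. Summed over the 7 genes, complex I messengers were 21419 ± 1305 CPM in the OVX+RJ mice against 20888 ± 802 CPM in the OVX mice (SD, n = 3 each).

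Complexes III and IV pass electrons on to oxygen, and complex V makes ATP from the proton gradient. mt-Cytb, the cytochrome b of complex III, was 6642, 6092 and 6316 CPM in OVX+RJ 1, 2 and 3 against 6174, 6149.7 and 6416 CPM in OVX 1, 2 and 3, giving a log2 fold change of 0.036 (SE 0.077). mt-Co1, which holds the oxygen-binding site of cytochrome c oxidase (complex IV), was the most abundant member, at 21043, 20256 and 20095 CPM in OVX+RJ 1, 2 and 3 against 20211, 19988 and 20934 CPM in OVX 1, 2 and 3, giving a log2 fold change of 0.018 (SE 0.071). OVX+RJ 1 and OVX 3 were again the highest libraries of both genes, and with OVX+RJ 1 left out the log2 fold change was -0.0095 for mt-Cytb and -0.014 for mt-Co1.

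mt-Co2, the subunit that receives electrons from cytochrome c, was 3585, 3404 and 3367 CPM in OVX+RJ 1, 2 and 3 against 3313, 3492 and 3729.7 CPM in OVX 1, 2 and 3, giving a log2 fold change of -0.013 (SE 0.084). mt-Co3, the third core subunit of the oxidase, was 3099, 3004 and 2856 CPM in OVX+RJ 1, 2 and 3 against 3069, 3020.1 and 3197 CPM in OVX 1, 2 and 3, giving a log2 fold change of -0.040 (SE 0.076). The OVX values spanned those of OVX+RJ at mt-Co2, and at mt-Co3 the lowest library was OVX+RJ 3. The overlapping reading frames mt-Atp8 and mt-Atp6 encode membrane subunits of the ATP synthase, complex V. mt-Atp6 was 4002, 3762 and 3727 CPM in OVX+RJ 1, 2 and 3 against 3678, 3685 and 3929 CPM in OVX 1, 2 and 3, giving a log2 fold change of 0.037 (SE 0.078). mt-Atp8 was 1414, 1307 and 1270.3 CPM in OVX+RJ 1, 2 and 3 against 1304, 1362 and 1468 CPM in OVX 1, 2 and 3, giving a log2 fold change of -0.039 (SE 0.091). Reads in the stretch the pair shares may count for either gene. With OVX+RJ 1 left out, the log2 fold changes of these 4 genes were all negative, at -0.053 for mt-Co2, -0.079 for mt-Co3, -0.0073 for mt-Atp6 and -0.097 for mt-Atp8. Over the 13 messengers the median log2 fold change was 0.036 with 8 positive, and without OVX+RJ 1 it was -0.024 with 1 positive. limma's unadjusted 95% intervals of these 13 fold changes lay between -0.35 and 0.35 on the log2 scale. Those of the ribosomal RNAs lay between -0.38 and 0.20, and those of the transfer RNAs between -1.11 and 0.56.

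The ribosomal RNAs of the small and large mitochondrial subunits had the lowest values in OVX+RJ 1. mt-Rnr1, the small subunit RNA, was 2107, 2689.6 and 2358 CPM in OVX+RJ 1, 2 and 3 against 2409, 2509 and 2792 CPM in OVX 1, 2 and 3, giving a log2 fold change of -0.098 (SE 0.11). mt-Rnr2, of the large subunit, was 3575, 4354 and 3787 CPM in OVX+RJ 1, 2 and 3 against 3901, 3947 and 4539 CPM in OVX 1, 2 and 3, giving a log2 fold change of -0.071 (SE 0.11). OVX+RJ 2 was the second highest library of both genes, after OVX 3. Without OVX+RJ 1 the log2 fold changes were -0.026 and -0.021.

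**Figure D2:**
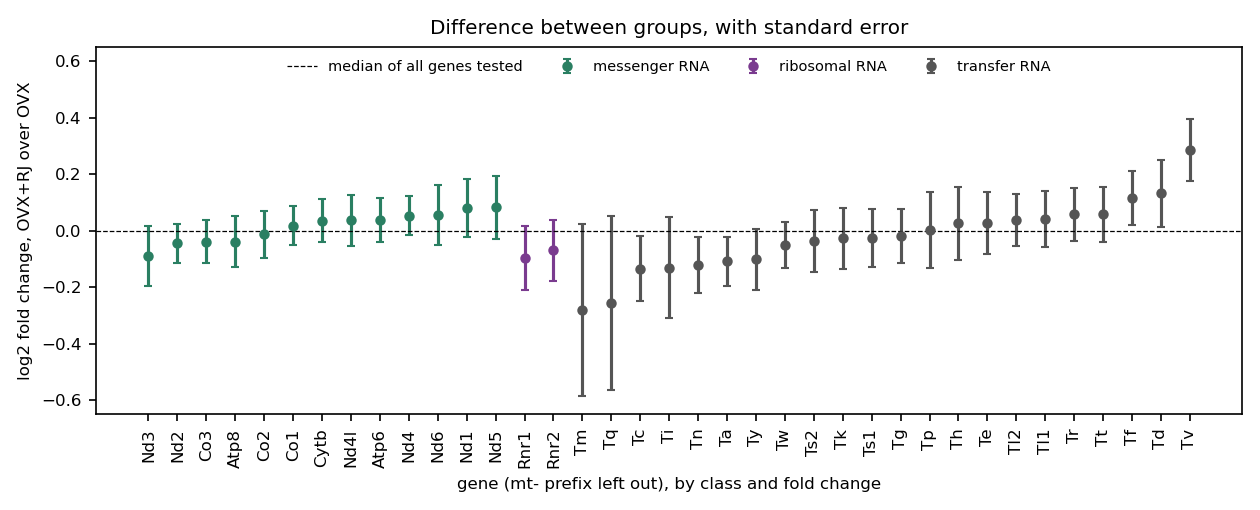
Log2 fold change, OVX+RJ over OVX, of each gene by edgeR (points) with limma's standard error (bars), grouped by class; the dashed line is the median of all genes tested. Messengers lie between -0.090 and 0.083, and the widest bars belong to mt-Tq and mt-Tm.

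Transfer RNA genes, which bring amino acids to the mitochondrial ribosome, covered the widest range of fold changes, from -0.28 at mt-Tm to 0.28 at mt-Tv. Their counts were low, between 62 and 4121 per gene and library, against 12280 or more for each messenger. The highest levels after poly(A) selection were at mt-Ts1 for serine and mt-Te for glutamate. The gene of mt-Ts1 overlaps the end of mt-Co1 on the opposite strand. Whether reads at these genes came from excised transfer RNAs or from longer RNAs across them was not tested. mt-Ts1 was 66.0, 67.1 and 60.9 CPM in OVX+RJ 1, 2 and 3 against 59.0, 70.9 and 69.1 CPM in OVX 1, 2 and 3, giving a log2 fold change of -0.026 (SE 0.10). mt-Te was 74.2, 61.6 and 60.8 CPM in OVX+RJ 1, 2 and 3 against 65.6, 62.8 and 66.3 CPM in OVX 1, 2 and 3, giving a log2 fold change of 0.027 (SE 0.11). OVX+RJ 1 was the highest library of mt-Te, as it was of its light strand neighbour mt-Nd6. mt-Tl1, a leucine transfer RNA, was 44.2, 37.8 and 41.2 CPM in OVX+RJ 1, 2 and 3 against 40.1, 38.2 and 42.5 CPM in OVX 1, 2 and 3, giving a log2 fold change of 0.041 (SE 0.098). With OVX+RJ 1 left out, the log2 fold change was -0.053 for mt-Ts1, -0.084 for mt-Te and -0.028 for mt-Tl1.

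The only member whose groups did not overlap was mt-Tv, for valine, which lies between both ribosomal RNA genes. That is 1 of 37 members, beside 10.5% of all genes tested, 4.53% with OVX+RJ higher and 5.95% with OVX+RJ lower. It was 2.13, 2.18 and 2.08 CPM in OVX+RJ 1, 2 and 3 against 1.79, 1.53 and 1.99 CPM in OVX 1, 2 and 3, giving a log2 fold change of 0.28 (SE 0.11) and an unadjusted p of 0.234 in edgeR. It was also the member with the fewest counts, 62 to 89 per library. mt-Tn and mt-Tc, for asparagine and cysteine, lie next to each other on the light strand. mt-Tn was 19.9, 23.9 and 22.2 CPM in OVX+RJ 1, 2 and 3 against 22.4, 23.8 and 26.0 CPM in OVX 1, 2 and 3, giving a log2 fold change of -0.12 (SE 0.10). mt-Tc was 18.8, 23.5 and 21.6 CPM in OVX+RJ 1, 2 and 3 against 21.98, 22.5 and 26.2 CPM in OVX 1, 2 and 3, giving a log2 fold change of -0.13 (SE 0.11). OVX+RJ 1 was the lowest of 6 at both, as it was at mt-Ta and mt-Ty of the same light strand group. With it left out, the log2 fold change was -0.064 for mt-Tn and -0.063 for mt-Tc.

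The largest departure in the set was in 1 library and 3 neighbouring genes. mt-Ti, mt-Tq and mt-Tm, the transfer RNAs for isoleucine, glutamine and methionine, lie side by side between mt-Nd1 and mt-Nd2, and mt-Ti and mt-Tq are named because of their values. In GENCODE M21, on build GRCm38, mt-Ti is chrM:3706-3774 and mt-Tm chrM:3845-3913 on the heavy strand (+), and mt-Tq is chrM:3772-3842 on the light strand (-). Their sequences from that release, 5′ to 3′, follow to show how close the 3 genes are; capitals mark the 3 bases where mt-Ti and mt-Tq overlap on opposite strands.
mt-Ti: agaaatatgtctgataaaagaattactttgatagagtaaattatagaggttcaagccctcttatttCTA
mt-Tq: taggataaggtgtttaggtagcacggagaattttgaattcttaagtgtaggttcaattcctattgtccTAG
mt-Tm: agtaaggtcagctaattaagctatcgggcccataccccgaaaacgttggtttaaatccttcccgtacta

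mt-Tm was 9.25, 20.6 and 18.7 CPM in OVX+RJ 1, 2 and 3 against 18.3, 19.7 and 21.2 CPM in OVX 1, 2 and 3, giving a log2 fold change of -0.28 (SE 0.30) and the lowest unadjusted p of the members, 0.229. mt-Tq was 3.77, 8.33 and 8.09 CPM in OVX+RJ 1, 2 and 3 against 7.92, 8.03 and 8.27 CPM in OVX 1, 2 and 3, giving a log2 fold change of -0.26 (SE 0.31). mt-Ti was 3.22, 5.11 and 4.54 CPM in OVX+RJ 1, 2 and 3 against 4.41, 4.59 and 5.18 CPM in OVX 1, 2 and 3, giving a log2 fold change of -0.13 (SE 0.18). OVX+RJ 1 alone was low, at 47.0% of the median of the other 5 libraries for mt-Tm, 46.6% for mt-Tq and 70.2% for mt-Ti. Exact Poisson 95% intervals of OVX+RJ 1, which cover counting error only, were 8.31 to 10.3 CPM for mt-Tm, 3.18 to 4.43 CPM for mt-Tq and 2.68 to 3.84 CPM for mt-Ti. The lowest of the other 5 libraries, at 18.3, 7.92 and 4.41 CPM in the same order, lay above each interval. The counting error of those 5 libraries was left out of this comparison. mt-Ti and mt-Tq were named for these low values, and mt-Tm for a p that rests on the same counts. The comparison therefore describes the departure and is not a test of it. The flanking messengers did not share the low values: OVX+RJ 1 was 116% of the same median at mt-Nd1 and 97.9% at mt-Nd2. Leaving out OVX+RJ 1 gave log2 fold changes for mt-Tm, mt-Tq and mt-Ti of -0.0060, 0.025 and 0.030.

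Elsewhere in OVX+RJ 1 some neighbouring genes lay on the same side of the other libraries and some on opposite sides. It was the highest of 6 libraries at 7 of 13 messengers and the lowest at 12 of 22 transfer RNAs and both ribosomal RNAs, while over all genes tested it was the highest at 19.1% and the lowest at 28.9%. From mt-Nd5 through mt-Nd6 to mt-Te it was 120.1%, 116% and 118% of the median of the other 5. From mt-Ta through mt-Tn and mt-Tc to mt-Ty it was 87.9%, 83.6%, 83.6% and 81.7%. Over the first 5 genes the values alternated, at 106% for mt-Tf, 84.0% for mt-Rnr1, 107% for mt-Tv, 90.6% for mt-Rnr2 and 110.4% for mt-Tl1, and mt-Td at 86.0% lay beside mt-Co2 at 105%. The summed level of 6 neuron markers was 5942 CPM in OVX+RJ 1, and 5575 and 5747 CPM in OVX+RJ 2 and 3, against 5406 to 5682 CPM in OVX. That of 6 oligodendrocyte markers was 3554, 4194 and 4774 CPM in OVX+RJ 1, 2 and 3, against 2949 to 4868 CPM in OVX. The part of cell makeup in these departures was not tested.

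**Figure D3:**
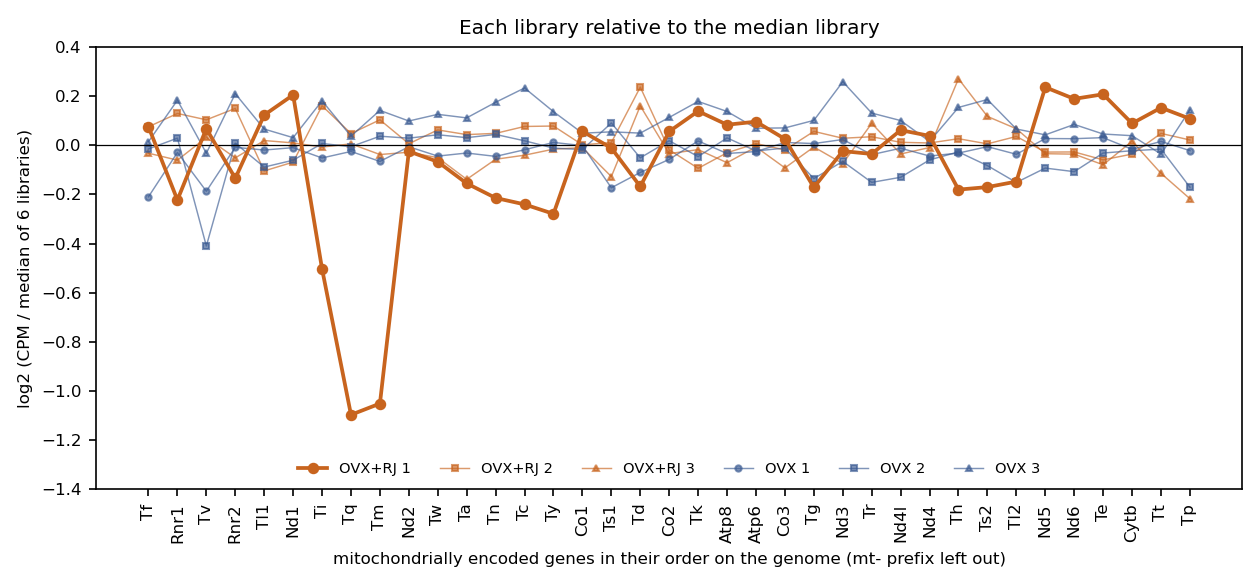
Log2 of each library's CPM over the median of the 6 libraries (vertical axis), for the 37 genes in their order on the mitochondrial genome (horizontal axis), with OVX+RJ in orange and OVX in blue. OVX+RJ 1 (thick line) drops at the neighbours mt-Ti, mt-Tq and mt-Tm, where it has 3.22, 3.77 and 9.25 CPM.

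Divided by gene length, levels covered a far wider range among the genes than between the groups. The order of the messengers below is that of the deposited counts. For 7 of them, mt-Co1, mt-Atp6 and mt-Nd3 included, near-identical nuclear copies also held counts, as described further on. Their places in the order therefore depend on how shared reads were counted, which is not stated. mt-Co1 was the highest, at 13246 ± 328 CPM per kilobase in OVX+RJ and 13189 ± 320.2 in OVX (SD, n = 3 each). Next came mt-Atp8 at 6521 ± 366 CPM per kilobase in OVX+RJ and 6755 ± 408 in OVX. mt-Atp6 followed at 5625 ± 220.1 CPM per kilobase in OVX+RJ and 5527 ± 209 in OVX and mt-Cytb at 5551 ± 242 CPM per kilobase in OVX+RJ and 5460.4 ± 129 in OVX, a pair that differed by less than its spread. mt-Nd3 was the lowest messenger per kilobase, at 1014 ± 36.3 CPM per kilobase in OVX+RJ and 1088 ± 129 in OVX. mt-Rnr1 was at 2497 ± 306 CPM per kilobase in OVX+RJ and 2691 ± 208 in OVX. mt-Rnr2 differed from it by less than the spread, at 2468 ± 255 CPM per kilobase in OVX+RJ and 2610.0 ± 225 in OVX. The lowest member was mt-Tv, at 30.9 ± 0.769 CPM per kilobase in OVX+RJ and 25.6 ± 3.32 in OVX, and it lies between both ribosomal genes. Over the 6 libraries the 8 light strand transfer RNA genes had a median of 323 CPM per kilobase (range 104 to 949) and the 14 heavy strand ones a median of 91.9 (28.3 to 542). The sources used here do not say whether counting used strand, so reads of a light strand gene and of heavy strand RNA across it may not have been told apart.

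**Figure D4:**
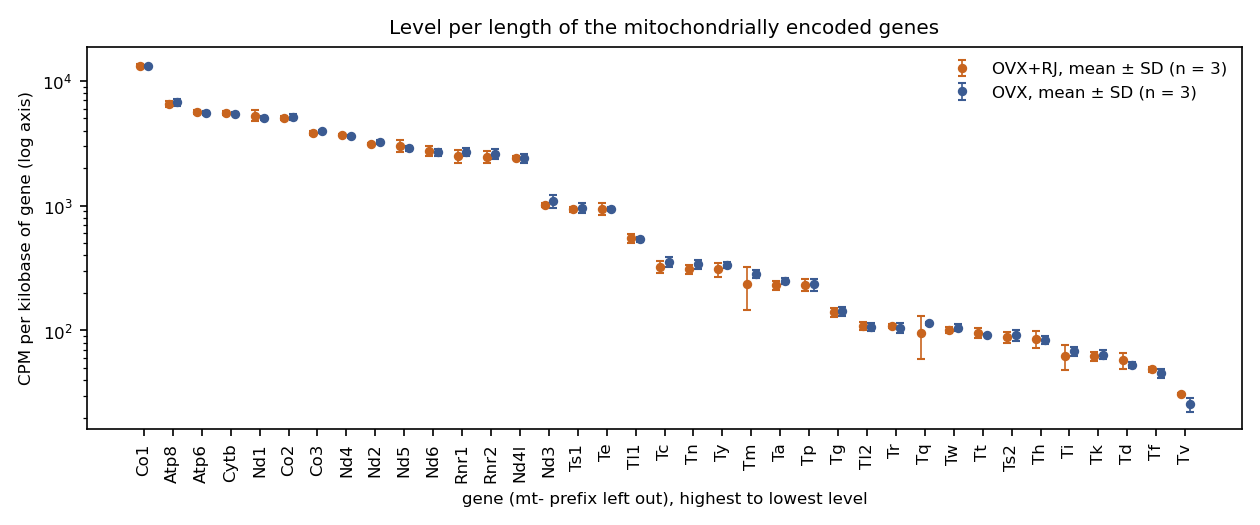
Level per length of the 37 genes, as CPM per kilobase on a log axis, from the highest to the lowest; points are means and bars SD (n = 3), with OVX+RJ left of OVX. mt-Co1 heads the order, the other messengers and the ribosomal RNAs follow, and all 22 transfer RNAs lie below mt-Nd3.

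Reads of 7 messengers could also be placed in nuclear DNA, because the nuclear genome carries pseudogenes copied from mitochondrial DNA. Aligning the GENCODE M21 transcripts to the mitochondrial ones found 7 annotated pseudogenes with at least 99% identity, and the deposited table gave all of them high counts. Gm10925 matched mt-Atp6 over 678 of 681 bases with 0 mismatches, Gm28661 matched mt-Co2 over 681 of 684 with 0, and Gm28437 matched mt-Co3 over 783 of 784 with 0. Gm10222 and Gm28439 were likewise identical to 294 of the 297 bases of mt-Nd4l and to 876 of the 1378 bases of mt-Nd4. Gm28438 differed from mt-Nd3 and Gm29216 from mt-Co1 by 1 base each in the aligned stretch. The difference is T3C in Gm28438 and A1066T in Gm29216, each written as the mitochondrial base, its position from the 5′ end of the mitochondrial gene and the base of the copy. The bases around both differences, from the same release, are shown with the differing base in capitals.
mt-Nd3: atTaacctgtacactgttatctt
Gm28438: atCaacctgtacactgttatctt
mt-Co1: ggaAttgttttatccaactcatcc
Gm29216: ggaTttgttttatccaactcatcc

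Copies of nearly a whole gene held counts close to those of that gene. Gm10925 was 4177, 3931 and 3978 CPM in OVX+RJ 1, 2 and 3 against 3892, 3876 and 4134 CPM in OVX 1, 2 and 3, or 104% to 107% of the mt-Atp6 counts of the same library. Gm28661 held 98.4% to 100.4% of the mt-Co2 counts, Gm28437 98.5% to 100.5% of mt-Co3 and Gm10222 94.1% to 101% of mt-Nd4l. Gm28438 held 83.3% to 89.3% of mt-Nd3. The shorter copies Gm28439 and Gm29216 held 37.03% to 40.6% of mt-Nd4 and 7.68% to 9.46% of mt-Co1. Less similar copies took few counts: Gm13340, which aligns to the whole of mt-Co1 at 97.6% identity, was 3.74, 3.12 and 2.83 CPM in OVX+RJ 1, 2 and 3 against 3.43, 3.15 and 4.07 CPM in OVX 1, 2 and 3.

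Together the 7 near-identical copies took 1.57%, 1.52% and 1.47% of all counts in OVX+RJ 1, 2 and 3, against 1.497%, 1.49% and 1.62% in OVX 1, 2 and 3. With them the mitochondrial share would be 8.44%, 8.11% and 7.95% in OVX+RJ, against 8.03%, 7.95% and 8.53% in OVX. How reads with several alignments were counted is not stated in the sources used here, and the levels of these 7 messengers relative to the other 6 are therefore uncertain. The other 6 are not all free of this. mt-Atp8 shares its end with the start of mt-Atp6, and Gm10925 is identical to mt-Atp6 from base 1, so reads there may also be shared. The fold changes of copy and gene were close: 0.034 (SE 0.076) for Gm10925 beside 0.037 for mt-Atp6, and -0.040 (SE 0.079) for Gm28437 beside -0.040 for mt-Co3. The widest gap was at Gm29216, with -0.11 (SE 0.10) beside 0.018 for mt-Co1, of which it covers less than the whole.

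**Figure D5:**
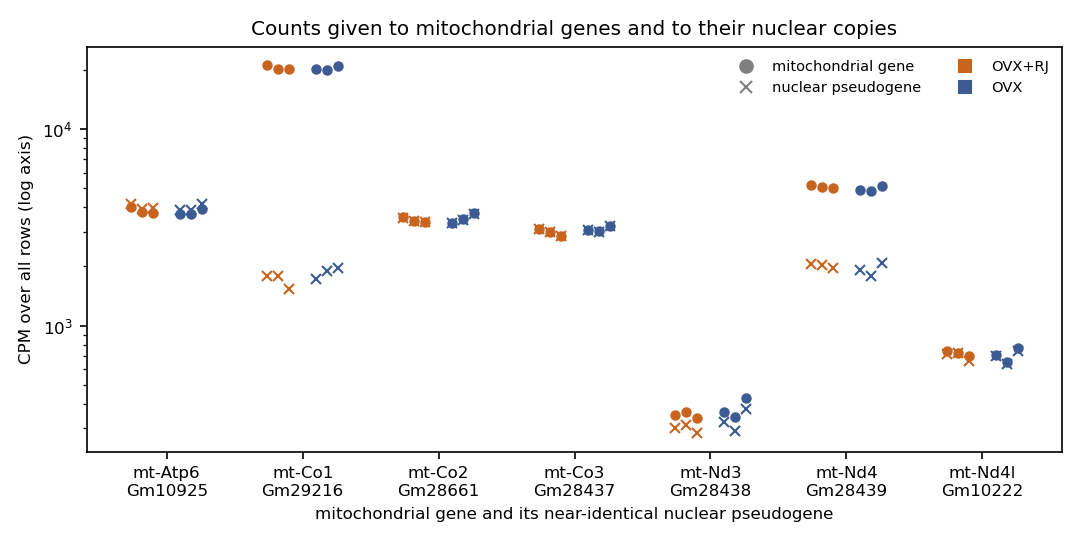
CPM on a log axis of 7 mitochondrial messengers (circles) and their near-identical nuclear pseudogenes (crosses) in each library, OVX+RJ left of OVX. The pairs coincide at mt-Co2, mt-Co3 and mt-Nd4l, Gm10925 lies slightly above mt-Atp6, and the copies of part of mt-Co1 and mt-Nd4 lie below them.

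Nuclear-encoded subunits of complexes I to V and their associated factors were set beside the mitochondrial ones. Of the 84 tested, 0 were called and 63 had a negative log2 fold change, beside 50.4% of all genes tested. The groups did not overlap at 26 of the 84 (31.0%), 25 of them lower in OVX+RJ, beside 10.5% of all genes. The unadjusted p was under 0.05 at 7 of the 84, all lower, beside 4.05% of all genes. The median log2 fold change of the 84 was -0.066, and -0.086 without OVX+RJ 1, beside -0.0015 over all genes tested. For complex I 31 of 37 fold changes were below 0 and the median was -0.068, and for complex IV 13 of 15 fold changes were below 0 and the median was -0.099. Nuclear complex IV subunits summed to 1428, 1389 and 1401 CPM in OVX+RJ 1, 2 and 3 against 1439, 1533 and 1567 CPM in OVX 1, 2 and 3, so that every OVX+RJ library was below every OVX library. Those of complex I were likewise apart, at 2171 to 2205 CPM in OVX+RJ and 2233 to 2336 CPM in OVX. Both sums carry no TMM scaling, which the edgeR test does use. With the TMM factors, 0.978 for OVX+RJ 1 and 1.01 for OVX 1, OVX+RJ 1 would lie above OVX 1 in both sums, so the groups would overlap. The mitochondrial messengers of complex IV summed to 27727, 26664 and 26318 CPM in OVX+RJ 1, 2 and 3 against 26593, 26500.2 and 27861 CPM in OVX 1, 2 and 3, and there the groups overlapped. For complexes III and V, 6 of 9 fold changes were below 0 and the median was -0.044, and 13 of 19 fold changes were below 0 and the median was -0.043. All 4 subunits of complex II, which has no mitochondrial gene, were positive, with a median of 0.046. The lowest p was at Ndufa11, a membrane subunit of complex I, with 35.6 ± 0.400 CPM in the OVX+RJ mice against 43.0 ± 2.32 CPM in the OVX mice (SD, n = 3 each), giving a log2 fold change of -0.26 (SE 0.075). Whether nuclear and mitochondrial subunits differed in their response was not tested.

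Genes that transcribe, process and translate mitochondrial RNA gave 0 calls. Of 17 genes of mitochondrial DNA transcription and replication, 8 were positive and 9 negative, with a median of -0.0073. The groups did not overlap at 1 of the 17, Tfb2m, beside 10.5% of all genes, and its unadjusted p in edgeR was 0.107. Tfb2m, a factor needed to start transcription, was 24.7, 23.2 and 24.2 CPM in OVX+RJ 1, 2 and 3 against 22.01, 21.9 and 21.6 CPM in OVX 1, 2 and 3, giving a log2 fold change of 0.15 (SE 0.070), with no overlap between groups. Polrmt, the polymerase, was 17.8, 17.8 and 21.8 CPM in OVX+RJ 1, 2 and 3 against 21.5, 23.2 and 19.7 CPM in OVX 1, 2 and 3, giving a log2 fold change of -0.15 (SE 0.11), with overlapping groups. Of 38 genes of RNA processing and stability, 18 were positive and 20 negative, with a median of -0.010, and the groups did not overlap at 5, beside 10.5% of all genes. Slirp, a partner of Lrpprc in keeping mitochondrial messengers stable, was 10.4 ± 2.01 CPM in the OVX+RJ mice against 14.0 ± 2.01 CPM in the OVX mice (SD, n = 3 each), giving a log2 fold change of -0.43 (SE 0.19). Trnt1, which adds the CCA end to transfer RNAs, was 50.2 ± 0.591 CPM in the OVX+RJ mice against 45.4 ± 1.99 CPM in the OVX mice, giving a log2 fold change of 0.15 (SE 0.073). At both genes the groups did not overlap, and the adjusted p in edgeR was 0.986 for each. For Slirp the separation was a near tie, since OVX+RJ 2, with 11.94 CPM, lay just below OVX 1, with 11.95 CPM. These levels carry no TMM scaling. With the TMM factors, 1.0059 for OVX+RJ 2 and 1.0104 for OVX 1, OVX+RJ 2 would lie just above OVX 1 at Slirp, so the groups would overlap.

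Among 22 mitochondrial aminoacyl-tRNA synthetases and amidotransferase subunits, which charge the transfer RNAs, 11 were positive and 11 negative, and the groups did not overlap at 6, beside 10.5% of all genes. Mars2, the methionine enzyme, had the lowest p of the list, 0.00391 unadjusted and 0.986 adjusted in edgeR. It was 43.0, 34.3 and 35.3 CPM in OVX+RJ 1, 2 and 3 against 30.2, 28.5 and 29.6 CPM in OVX 1, 2 and 3, giving a log2 fold change of 0.36 (SE 0.12), and 0.24 without OVX+RJ 1. Aars2, for alanine, was 20.3 ± 3.09 CPM in the OVX+RJ mice against 24.2 ± 2.10 CPM in the OVX mice (SD, n = 3 each), giving a log2 fold change of -0.24 (SE 0.13), and -0.13 without OVX+RJ 1. Of 78 mitochondrial ribosomal protein genes, 52 had a fold change below 0 (median -0.054), beside 50.4% of all genes tested. The groups did not overlap at 13 of the 78, beside 10.5% of all genes. An unadjusted p under 0.05 was found at 2 of the 78, Mrpl46 and Mrpl19, beside 4.05% of all genes. Over the 78 genes the summed level was 1772 to 1822 CPM in OVX+RJ and 1839 to 1875 CPM in OVX, with no overlap before TMM scaling. With the TMM factors, 0.978 for OVX+RJ 1 and 1.01 for OVX 1, OVX+RJ 1 would lie above OVX 1 in this sum. Mrpl46 was 13.2 ± 0.941 CPM in the OVX+RJ mice against 16.0 ± 1.26 CPM in the OVX mice, giving a log2 fold change of -0.27 (SE 0.10). Of 10 regulators of mitochondrial biogenesis, 5 were positive and 5 negative. Ppargc1a, the coactivator that drives this programme, was 47.2, 44.4 and 54.3 CPM in OVX+RJ 1, 2 and 3 against 48.3, 41.6 and 45.2 CPM in OVX 1, 2 and 3, giving a log2 fold change of 0.12 (SE 0.11), with overlapping groups, and its relative Ppargc1b was 8.66 ± 0.948 CPM in the OVX+RJ mice against 7.16 ± 1.06 CPM in the OVX mice, giving a log2 fold change of 0.29 (SE 0.14).

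Summed markers of several other cell types did not overlap between the groups. The 6 endothelial markers summed to 140.1 to 158 CPM in OVX+RJ and 176 to 189 CPM in OVX, and 6 of pericytes and smooth muscle to 154 to 161 CPM in OVX+RJ and 172 to 180.4 CPM in OVX. The 6 microglia markers summed to 199 to 211 CPM in OVX+RJ and 215 to 218 CPM in OVX. Not all members of these 3 lists went the same way. Log2 fold changes were below 0 at 5 of 6 endothelial, 5 of 6 pericyte and smooth muscle, and 4 of 6 microglia markers. The unadjusted p in edgeR was under 0.05 at 2, 2 and 0 of them in the same order, beside 4.05% of all genes tested. The 7 choroid plexus markers, a tissue rich in mitochondria, summed to 26.8 to 54.2 CPM in OVX+RJ and 25.3 to 35.9 CPM in OVX, with overlap, and the 6 of them that were tested all had log2 fold changes above 0, with a median of 1.00 and 3 at an unadjusted p under 0.05. The 6 dentate granule cell markers summed to 326, 429 and 281 CPM in OVX+RJ 1, 2 and 3 against 423, 336 and 459 CPM in OVX 1, 2 and 3, a log2 difference of -0.24. Those groups overlapped, all 6 fold changes were below 0, with a median of -0.25, and 3 had an unadjusted p under 0.05. The lowest adjusted p of each marker list was 0.986 in edgeR. The summed markers of astrocytes and of erythrocytes overlapped between groups. No defining marker of these lists was at 0 in all libraries, and the part of these cells in the mitochondrial values was not tested.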

How the data were processed

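RNA of the hippocampus was measured in 3 OVX+RJ and 3 OVX libraries. Per the labels' protocols, the tissue was snap-frozen and stranded libraries were prepared after poly(A) selection. Build GRCm39 and the tools HISAT2 2.2.1, StringTie 2.2.1, fastp 0.23.4 and bcl2fastq 2.19 are named in the submitters' processing notes, without their roles. For the annotation release, the strand setting and reads with several alignments, the choice is not given in the sources used here. The authors deposited expected counts per gene symbol, not scaled between libraries, matched to samples by library name.

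Expected counts (51 features held values that were not whole) were rounded for the tests, and 18629 of 32067 features passed filterByExpr. Groups were compared with edgeR 4.0.16 (TMM, glmQLFit, glmQLFTest, Benjamini-Hochberg, threshold 0.05) in R 4.3.3. Standard errors and 95% intervals are limma 3.58.1's moderated ones from log2 CPM (prior count 2). CPM printed are unrounded counts over library totals. Sums are compared by their values, with no p. With 3 libraries a group, the smallest two-sided p of an exact permutation test is 0.1. The p-values of edgeR weigh group differences against the spread between these libraries, moderated over all genes tested. The same test was run on simulated counts with known changes.

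Gene positions, strands, lengths and sequences come from GENCODE M21 (GRCm38), where 37 of 37 symbols were found. This is not the submitters' build, so positions serve only order and overlap. Nuclear copies were found with blastn 2.17.0 (at least 95% identity over at least 50% of the shorter transcript). Members and lists were chosen with earlier results of these data known. The rule gives values in every library for all 13 messengers, both ribosomal RNAs, the 4 transfer RNAs with most counts and the 3 with the lowest p, and at most 4 lowest-p genes of each related list. mt-Ti and mt-Tq were added after their values were seen. Alternatives were DESeq2 1.42.0, limma-voom, other scaling and filters, robust empirical Bayes, a replicate block and each library left out.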

Additional observations from a re-analysis of the deposited data

How the results depend on the processing

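Among the 37 genes, 0 were called under every alternative run, with a lowest adjusted p between 0.823 (without OVX+RJ 2) and 0.999. The lowest unadjusted p was 0.0294 (mt-Rnr1, without OVX+RJ 2), the only member under 0.05 in any alternative. Over the 18629 genes of the full fit edgeR called 0 higher and 0 lower (754 at an unadjusted p under 0.05), DESeq2 10 higher and 2 lower, robust empirical Bayes 2 higher and 1 lower, and the replicate block 1 higher and 0 lower, and leaving out 1 library, with 18988 to 19128 genes tested, gave 0 to 7 higher and 0 to 1 lower. The labels do not say that replicate numbers pair libraries, and deviations of same-numbered libraries from their group means correlated at 0.046, -0.0024 and 0.0031 across genes. Not every library correlated best with its own number. With all libraries, mt-Tp changed sign, at -0.011 without scaling factors, -0.011 over nuclear rows, -0.0079 with every gene tested and -0.00026 with the replicate block, against 0.0016; the cause was not tested. Leaving out 1 library in turn changed the sign of 24 genes, whose log2 fold changes ran as follows: mt-Rnr2 -0.15 to 0.0091, mt-Tl1 -0.028 to 0.10, mt-Nd1 -0.016 to 0.14, mt-Ti -0.27 to 0.030, mt-Tq -0.44 to 0.025, mt-Co1 -0.014 to 0.044, mt-Ts1 -0.11 to 0.026, mt-Co2 -0.058 to 0.038, mt-Tk -0.11 to 0.045, mt-Atp8 -0.097 to 0.015, mt-Atp6 -0.0073 to 0.075, mt-Tg -0.080 to 0.043, mt-Nd3 -0.16 to 0.015, mt-Tr -0.0067 to 0.14, mt-Nd4l -0.018 to 0.10, mt-Th -0.091 to 0.12, mt-Ts2 -0.099 to 0.050, mt-Tl2 -0.016 to 0.099, mt-Nd5 -0.024 to 0.14, mt-Nd6 -0.035 to 0.10, mt-Te -0.084 to 0.084, mt-Cytb -0.0095 to 0.071, mt-Tt -0.018 to 0.13, mt-Tp -0.080 to 0.095. Without OVX+RJ 1 alone 15 signs changed. Over left-out libraries the summed log2 differences ran from -0.021 to 0.039 for messenger, -0.18 to -0.023 for ribosomal and -0.077 to -0.0063 for transfer RNA. The pooled SDs of all 6 libraries were 0.14 for ribosomal and 0.060 for transfer RNA. The ribosomal difference was larger than that without OVX+RJ 2, and the transfer RNA difference without OVX+RJ 2, OVX 1 or OVX 2. The SDs of the reduced sets were not computed. With nuclear pseudogenes added the messenger difference was 0.0072, an alternative chosen after seeing the data, as were the TMM-scaled sums, the left-out libraries for the complex sums and the mt-Nd6 ratio, and, for single genes, DESeq2 and upper quartile factors in edgeR, both other filters and robust empirical Bayes. Transfer RNA genes had the lowest counts, 62 to 4121, but standard errors did not follow counts throughout, at 0.11 for mt-Te and 0.11 for mt-Rnr1.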

Other observations

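OVX 3 was the highest of the 6 libraries at 20 of the 37 mitochondrially encoded genes, among them both ribosomal RNAs and 12 of the 22 transfer RNAs, while over all genes tested it was the highest at 13.6%. It was more than 10% above the median of the other 5 libraries at 16 members and more than 10% below it at 0. OVX+RJ 1 was more than 10% above that median at 7 members and more than 10% below it at 13. No other library was that far from it at more than 5 members in either direction.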
